A study of Mus musculus with 2 samples.

Results

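The genes described here are 10 paralogous subunits of the mammalian BAF (SWI/SNF) chromatin remodelling complex, *Smarca2*, *Smarca4*, *Smarcc1*, *Smarcc2*, *Smarcd3*, *Actl6a*, *Actl6b*, *Phf10*, *Dpf1* and *Dpf3*. They were taken by name from the known subunit families, and all 10 were found among the 29311 genes listed for the samples. The study measured gene expression by RNA-seq of rRNA-depleted total RNA in E14 ES cells, a mouse embryonic stem cell line, and in the forebrain of mouse embryos at day E10.5 of development. These samples served to compare background transcription of *Hox* genes between pluripotent cells and a tissue in which the authors rarely detected it. The ES cells were wild type and grown without feeder cells in medium with serum and LIF, a cytokine that maintains pluripotency. The forebrain was wild type, from B6CBAF1/J embryos, and its RNA was isolated from single embryos. Each group is 1 sample without replicates, so that no difference below could be tested between cell types. Cell type, strain and growth in culture or in the embryo cannot be told apart. Because the forebrain was sequenced in bulk, fewer cells of a type and less RNA per cell cannot be told apart either.

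BAF complexes use the energy of ATP to move or evict nucleosomes and thereby open chromatin at enhancers and promoters. Many positions in the complex can be filled by either member of a pair or small family of closely related proteins, and the choice differs between cell types. ES cells are known to use an assembly built on *Smarca4* (BRG1), *Smarcc1* (BAF155) and *Actl6a* (BAF53a). Neural progenitors add *Smarcc2* (BAF170) and *Smarca2* (BRM) and use *Phf10* (BAF45a). *Actl6b* (BAF53b) and *Dpf1* (BAF45b) or *Dpf3* (BAF45c) are known as subunits of neuronal BAF. The exchange of *Actl6a* for *Actl6b* and of *Phf10* for *Dpf1* or *Dpf3* accompanies the exit of neural progenitors from the cell cycle.

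The paralogs resemble each other in sequence, but none of the aligned pairs shares an identical stretch as long as a sequencing read. The coding sequences of *Actl6b* and *Actl6a* in the mm9 annotation are 1281 and 1290 bases long and were identical at 76.7% of 1275 aligned positions, with a longest identical run of 23 bases. For *Smarca2* and *Smarca4* the identity was 76.3% and the longest run 20 bases. *Smarcc2* and *Smarcc1* were 74.1% identical with a run of 26 bases, and *Dpf1* and *Phf10* 70.2% with a run of 12 bases. No aligned pair shared a word of 50 coding bases, the shorter of the read lengths given for the series. *Dpf3* and *Phf10* were not among the aligned pairs. The most similar window of 90 coding bases of the *Actl6* pair is shown because its exchange is the best known of the family, with the 14 positions that differ in capitals.
Actl6a (coding bases 550 to 639): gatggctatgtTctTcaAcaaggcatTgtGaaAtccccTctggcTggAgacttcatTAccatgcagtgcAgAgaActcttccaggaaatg
Actl6b (coding bases 541 to 630): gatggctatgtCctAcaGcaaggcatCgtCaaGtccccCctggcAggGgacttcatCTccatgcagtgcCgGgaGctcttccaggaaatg

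Promoter sequences were taken from RefSeq (GRCm38.p6, from 250 bases before to 50 bases after the start site) and matched for all 10 genes. The members of the 2 pairs whose ratio differed most between the samples are shown, together with *Dpf3*, which held the lowest number of CpG dinucleotides. Capitals mark CCAAT, or ATTGG for the same motif on the other strand. These letters were chosen after the promoters had been read.
Actl6b (chr5:137553296-137553595, plus strand): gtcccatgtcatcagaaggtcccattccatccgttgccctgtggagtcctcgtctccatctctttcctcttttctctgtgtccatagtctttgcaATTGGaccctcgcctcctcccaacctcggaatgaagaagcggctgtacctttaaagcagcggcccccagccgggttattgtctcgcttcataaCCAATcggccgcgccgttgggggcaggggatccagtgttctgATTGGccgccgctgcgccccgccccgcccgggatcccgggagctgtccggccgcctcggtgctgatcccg
Actl6a (chr3:32708296-32708595, plus strand): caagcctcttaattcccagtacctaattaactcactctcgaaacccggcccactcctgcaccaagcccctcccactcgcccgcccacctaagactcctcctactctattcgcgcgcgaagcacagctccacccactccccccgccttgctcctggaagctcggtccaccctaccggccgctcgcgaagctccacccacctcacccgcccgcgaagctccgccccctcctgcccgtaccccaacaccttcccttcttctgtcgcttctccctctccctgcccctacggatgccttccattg
Smarca2 (chr19:26604910-26605209, plus strand): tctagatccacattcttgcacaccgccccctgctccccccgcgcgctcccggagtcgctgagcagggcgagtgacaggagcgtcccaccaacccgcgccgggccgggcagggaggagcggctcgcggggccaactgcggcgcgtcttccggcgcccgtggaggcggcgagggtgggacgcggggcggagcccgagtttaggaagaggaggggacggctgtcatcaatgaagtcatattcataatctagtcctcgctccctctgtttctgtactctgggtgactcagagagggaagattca
Smarca4 (chr9:21615919-21616218, plus strand): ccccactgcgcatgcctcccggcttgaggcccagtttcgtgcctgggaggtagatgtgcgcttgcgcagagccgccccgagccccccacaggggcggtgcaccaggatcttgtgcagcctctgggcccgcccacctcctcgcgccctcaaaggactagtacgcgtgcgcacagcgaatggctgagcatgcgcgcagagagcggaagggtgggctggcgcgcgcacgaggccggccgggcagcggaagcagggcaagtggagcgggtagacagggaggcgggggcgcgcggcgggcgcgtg
Dpf3 (chr12:83487687-83487986, minus strand): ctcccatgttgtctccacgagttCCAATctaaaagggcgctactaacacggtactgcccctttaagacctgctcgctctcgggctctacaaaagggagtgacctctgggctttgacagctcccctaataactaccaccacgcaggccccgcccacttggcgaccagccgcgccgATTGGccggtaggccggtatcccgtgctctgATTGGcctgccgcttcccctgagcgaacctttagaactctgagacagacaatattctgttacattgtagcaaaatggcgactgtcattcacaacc

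All 10 promoters were rich in CpG dinucleotides, with 17 for *Dpf3* to 62 for *Phf10*, compared with a median of 7 over 27025 promoters of the same length. CCAAT occurred on either strand in 3 of the 10, near its share of 37.9% among all promoters. The 3 were *Actl6b* (155, 62 and 20 bases before the start site), *Dpf3* (227, 76 and 45 bases before) and *Dpf1* (216 and 97 bases before). CACGTG, the core of an E-box, was in 0 of the 10 windows and in 7.24% of all. Of the letters searched for the RE1 element bound by REST, TTCAGCACC occurred in 0 of the 10 and in 0.359% of all promoters, and GGACAGCGC in 0 and 0.433%, on either strand. A match or its absence describes these 300 bases only.

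The deposited unit is a value per gene that the authors call RPKM, reads per length of exon, so that levels of different genes can be compared within a sample. The size of 1 read could be read from the low values, given the exonic length of each gene, and reads per gene were inferred from it. These summed to 42773234 for the ES cell sample and 59773588 for the forebrain sample. Intervals in what follows are exact 95% intervals on these reads and cover counting error only. A difference is called when it reaches 2-fold on log2(RPKM + 1). On this scale the fold of a weakly expressed gene comes out too small. The deposited values are also not RPKM as usually scaled. In them, 1 read per kb of exon counts as 1.22 in ES cells and 0.819 in forebrain. With the totals above, this lies far above what scaling by the reads on genes would give. A deposited value of 10 is therefore a much lower level than a usual RPKM of 10.

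The sample labels were compared with marker genes before the paralogs. The 6 ES cell markers were all lower in E10.5 forebrain, with a summed RPKM of 37188 in ES cells and 158 in forebrain. All 5 listed markers of neural progenitors were higher in forebrain, and their sum was 210 in ES cells and 9291 in forebrain. The sum of the neuron markers was 7736 in ES cells and 5862 in forebrain, with 5 of 6 higher in forebrain. The exception was *Stmn2*, with 6910 in ES cells and 1056 in forebrain. RNA of other cell types was also present in the forebrain sample. All 5 erythroid markers (sum 335 to 675076), 4 of 5 endothelial markers (603 to 1895) and all 5 head mesenchyme markers (55.5 to 7302) were higher there. Muscle markers summed to 557 and 748, and markers of the primitive streak and endoderm to 1129 and 51.4. Of the latter, 3 of 5 were lower in forebrain, with *T* at 1112 and 2.66, while *Sox17* (3.10 and 41.3) and *Gata6* (1.34 and 5.90) were higher. *Tnnt2* in ES cells was the only listed marker at 0. The part of any of these cell types in the values of the BAF paralogs was not tested.

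The levels of the 10 paralogs ranged from percentile 7.8 to 96.2 in the ES cell sample and between 14.6 and 96.6 in forebrain. These percentiles are among the protein-coding genes that reached an RPKM of 10 in at least 1 sample, here called expressed. This limit is on the deposited scale and is lower than a usual RPKM of 10. In ES cells *Actl6a* was highest, followed by *Smarcc1*, *Smarca4* and *Phf10*, and then by *Smarcc2*, *Dpf1* and *Smarcd3*, whereas *Smarca2*, *Dpf3* and *Actl6b* were all below an RPKM of 10. The counting intervals of *Smarcc2* and *Dpf1* overlapped, as did those of the 3 lowest genes. In E10.5 forebrain the order was *Smarcc1*, *Smarca4*, *Actl6a*, *Smarcc2*, *Phf10*, *Smarcd3*, *Dpf1*, *Smarca2*, *Actl6b* and *Dpf3*, and no neighbours in this order overlapped in their intervals.

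**Figure D1:**
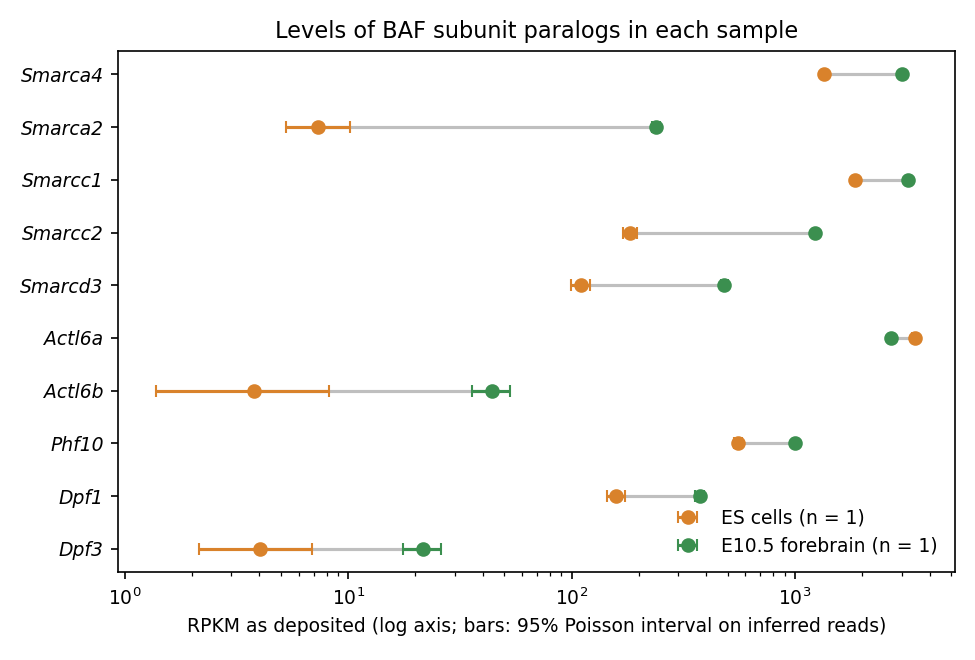
RPKM of the 10 BAF paralogs (log axis) in ES cells (orange) and E10.5 forebrain (green), 1 sample each, with bars for the 95% Poisson interval on inferred reads. *Smarca2*, *Actl6b* and *Dpf3* lie below 10 in ES cells and at 239, 44.0 and 21.6 in forebrain, while *Actl6a* is the only gene whose forebrain value is the lower one.

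Of the 10 paralogs, 7 were at least 2-fold higher in E10.5 forebrain and 0 at least 2-fold lower. Among the 15388 expressed protein-coding genes, 29.6% were at least 2-fold higher and 18.0% at least 2-fold lower. The median difference of the paralogs was 1.68 on log2(RPKM + 1), beside 0.20 over these genes. The 3 paralogs that stayed within 2-fold were *Smarcc1*, *Phf10* and *Actl6a*. Other subunits of ES cell or progenitor complexes, *Smarca4*, *Smarca2* and *Smarcc2*, were among those called higher. At least 4-fold higher were 5 paralogs, beside 17.8% of the expressed protein-coding genes, and 0 were 4-fold lower, beside 9.4%. The 5 were *Smarca2*, *Actl6b*, *Smarcc2*, *Dpf3* and *Smarcd3*. Without *Smarcd3* and *Dpf3*, whose reads may belong in part to another locus, 5 of 8 were at least 2-fold higher.

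**Figure D2:**
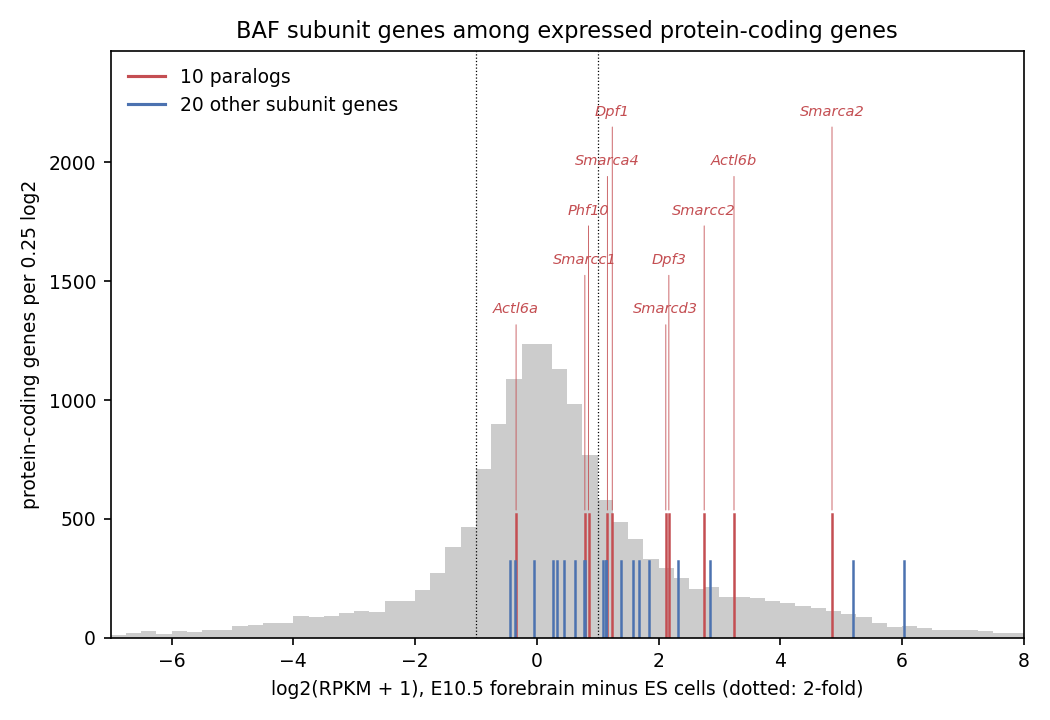
Number of expressed protein-coding genes (grey, bins of 0.25; genes beyond the ends of the axis are not drawn) by the difference in log2(RPKM + 1), E10.5 forebrain minus ES cells, with red lines for the 10 paralogs and blue lines for 20 other subunit genes of BAF complexes. The dotted lines are at 2-fold, and 7 red lines lie to the right of the upper one, with *Smarca2* farthest at 4.85.

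The catalytic subunit is the ATPase, which is either *Smarca4* or *Smarca2*. *Smarca4* (chr9:21420613-21508674, mm9, plus strand) had an RPKM of 1347 in ES cells (1316 to 1378) and of 3015 in E10.5 forebrain (2977 to 3054). It was thus abundant in both, at percentiles 87.4 and 96.3 of the expressed protein-coding genes, and 2.24-fold higher in forebrain (2.18 to 2.30). *Smarca2* (chr19:26679650-26852811, plus strand) had 7.33 in ES cells, from 39 reads (5.28 to 10.2), and 239 in forebrain, from 1868 reads (228 to 250). This 32.5-fold difference (23.4 to 45.3) was the largest among the 10 genes, and larger than that of 95.7% of the expressed protein-coding genes. Even so, *Smarca4* remained the main ATPase transcript in forebrain. Its level was 184 times that of *Smarca2* in ES cells and 12.6 times in forebrain, and the share of *Smarca2* in the summed RPKM of the pair went from 0.541% to 7.33%. Since both genes were higher in forebrain, the sum of the pair was 2.40-fold higher as well.

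The scaffold of the complex is a dimer of *Smarcc1* and *Smarcc2*, on which the other core subunits assemble. *Smarcc1* (chr9:110034541-110142682, plus strand) had 1853 in ES cells (1817 to 1890) and 3203 in forebrain (3164 to 3242), a 1.73-fold difference that lies below the 2-fold limit. *Smarcc2* (chr10:127896292-127927229, plus strand) had 182 in ES cells (169 to 196) and 1231 in forebrain (1203 to 1259), or 6.76-fold more (6.27 to 7.29). The lower of the pair in both samples was *Smarcc2*, but its distance from *Smarcc1* narrowed from 10.2-fold to 2.60-fold. Its share of the pair went from 8.95% to 27.8%.

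*Smarcd3* (BAF60c) belongs to a family of 3 genes, with *Smarcd1* (BAF60a) and *Smarcd2* (BAF60b), which link the complex to transcription factors, and it is best known from the heart. It lies on chr5:24096636-24107830 (minus strand) and had an RPKM of 110 in ES cells (99.5 to 121) and of 482 in forebrain (464 to 501), 4.39-fold higher (3.95 to 4.88). This value is uncertain, because 2466 of its 4545 exonic bases (54.3%) overlap exons of *Chpf2*, a gene for an enzyme of chondroitin synthesis on the opposite strand. The libraries were made strand-specific, yet the deposited values appear to count both strands. In 18 genes lying wholly inside exons of a strongly expressed gene on the opposite strand, the median level was 1.09 times that of this gene in ES cells and 1.11 times in forebrain. At its deposited RPKM of 207 in ES cells and 394 in forebrain, *Chpf2* would put 417 and 1187 reads into the shared bases. For *Smarcd3*, 409 and 2675 reads were counted. If both strands are counted, the level of *Chpf2* may itself include reads of *Smarcd3*, so that 417 and 1187 may be too high. In ES cells the value of *Smarcd3* therefore cannot be told apart from that of *Chpf2*, whereas in forebrain more reads were counted than the deposited level of *Chpf2* accounts for. *Smarcd1* and *Smarcd2* stayed within 2-fold, with 707 and 892 for *Smarcd1* and 843 and 620 for *Smarcd2*. On the values as deposited, *Smarcd3* held 6.62% of the BAF60 family in ES cells and 24.2% in forebrain.

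The actin-related subunits *Actl6a* and *Actl6b* bind the ATPase together with beta-actin. *Actl6a* (chr3:32607468-32625890, plus strand) was the most abundant of the 10 paralogs in ES cells, with 3429 (3353 to 3506), and had 2702 in forebrain (2647 to 2758). It was the only one with a lower value in forebrain, where it reached 0.788 times the level of ES cells (0.764 to 0.812). Its exons share 447 bases with *Mrpl47* on the opposite strand, whose level corresponds to 296 of its 7761 reads in ES cells and 337 of 9116 in forebrain. *Actl6b* (chr5:137994745-138010810, plus strand) was detected in both samples, at 3.77 from 6 reads in ES cells (1.38 to 8.20) and at 44.0 from 104 reads in forebrain (35.8 to 53.1). Forebrain was 11.7-fold higher, with a wide interval from 5.17 to 32.4 that reflects the few reads in ES cells. *Actl6b* was nevertheless a minor transcript at E10.5. *Actl6a* exceeded it 909-fold in ES cells and 61.4-fold in forebrain, where *Actl6b* held 1.60% of the pair compared with 0.110% in ES cells.

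The BAF45 subunits carry PHD fingers, domains that read histone tails, and 3 of the family's 4 genes are among the paralogs. *Phf10* (chr17:15081999-15129820, minus strand), the form of proliferating progenitors, had 554 in ES cells (532 to 578) and 999 in forebrain (975 to 1025), a difference of 1.80-fold. An overlap of 485 bases with *1600012H06Rik* on the opposite strand corresponds to 158 of its 2275 reads in ES cells and 225 of 6112 in forebrain. *Dpf1* (chr7:30088970-30102607, plus strand), a neuronal form, was detected in ES cells, at 158 from 456 reads (144 to 173). It had 374 in forebrain (356 to 393), 2.37-fold more (2.14 to 2.64). *Dpf3* (chr12:84314732-84451882, minus strand), the other neuronal form, had 4.02 in ES cells from 13 reads (2.14 to 6.87) and 21.6 in forebrain from 104 reads (17.6 to 26.1), 5.37-fold more (3.01 to 10.4).

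The level of *Dpf3* carries a limit of its own. In mm9, 8 of its 11 exon segments, with 3617 of 3949 exonic bases (91.6%), occur a second time on the same chromosome, within chr12:84583804-84685528, where no gene is annotated. Reads of these exons could be placed at either copy, so that both its level and its fold are uncertain, and the part of the copy in either sample was not tested. For *Smarca4*, *Smarcc1* and *Phf10* the bases with an exact copy elsewhere numbered 67, 167 and 122, at most 2.51% of the exons, and for the other 6 genes 0. *Phf10* and *Dpf2*, which is expressed in most cells, led the BAF45 family in both samples. *Phf10* held 49.9% in ES cells and 48.1% in forebrain and *Dpf2* 35.6% and 32.8%, whereas *Dpf1* held 14.2% and 18.0% and *Dpf3* 0.362% and 1.04%. The makeup of this family thus differed less between the samples than that of the ATPase or scaffold pair.

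**Figure D3:**
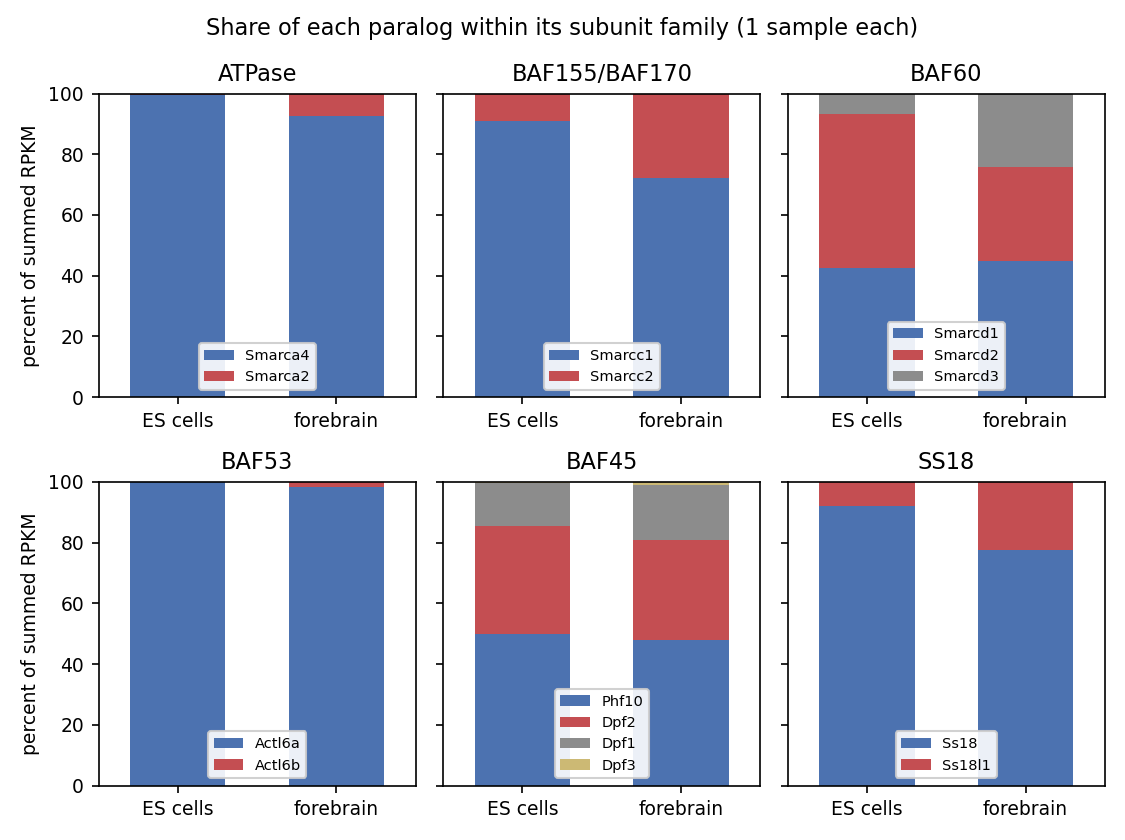
Percent of the summed RPKM held by each gene of 6 subunit families in ES cells and E10.5 forebrain (1 sample each). *Smarcc2* goes from 8.95% to 27.8% and *Smarcd3* from 6.62% to 24.2%, while *Actl6b* holds 1.60% and *Dpf3* 1.04% in forebrain. The shares of *Smarcd3* and *Dpf3* are uncertain, because their reads may belong in part to *Chpf2* and to a second copy of *Dpf3* exons.

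The ratio of a later to an earlier paralog within a sample does not depend on how the samples were scaled, and its change between samples does not depend on gene length. For 7 pairs this ratio was compared between the samples on the inferred reads, and in all 7 it was higher in E10.5 forebrain. The pairs were chosen with earlier results of these data known, and *Phf10* is the earlier gene for both *Dpf1* and *Dpf3*. No share over all pairs of genes was computed, so the count of 7 has no background beside it. The ratio changed most for *Actl6b* over *Actl6a*, 14.8-fold (6.55 to 41.2), and for *Smarca2* over *Smarca4*, 14.4-fold (10.4 to 20.3), and the order of these 2 is not resolved by their intervals. The next were *Smarcc2* over *Smarcc1* with 3.91-fold (3.61 to 4.23) and *Smarcd3* over *Smarcd1* with 3.48-fold (3.08 to 3.92, with the limit from *Chpf2* given above). *Ss18l1* (CREST) over *Ss18*, the pair exchanged in neurons along with the actin-related subunits, changed 3.33-fold (2.80 to 3.98). *Dpf3* over *Phf10* changed 2.98-fold (1.66 to 5.79), with the limit from the second copy of *Dpf3* exons given above, and on the log2 scale with a pseudocount of 5 the change was 0.71 in place of 1.32. The change was smallest for *Dpf1* over *Phf10*, at 1.32-fold (1.17 to 1.48), an interval apart from those of the other 6 pairs. Only the sampling of reads is covered by these intervals, and the spread between embryos or cultures is not known. In none of the pairs did the order of the genes turn, since the earlier paralog had the higher RPKM in both samples throughout.

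**Figure D4:**
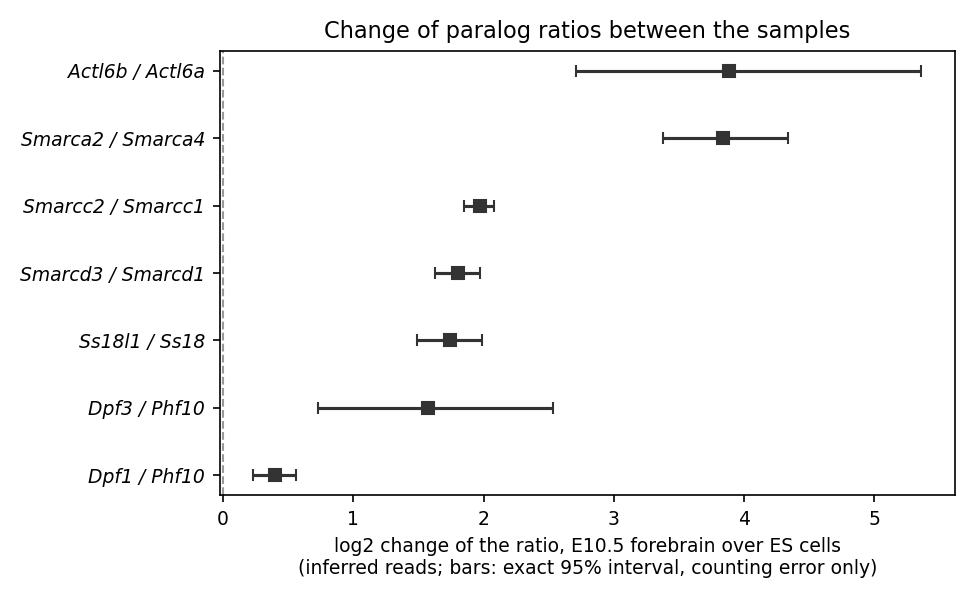
Change of 7 paralog ratios between ES cells and E10.5 forebrain, as the log2 odds ratio of inferred reads with its exact 95% interval (counting error only). All 7 lie above 0, from 0.40 for *Dpf1* over *Phf10* to 3.88 for *Actl6b* over *Actl6a*. The pairs were chosen with earlier results of these data known.

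The other subunits of BAF, PBAF and ncBAF complexes were mostly similar or higher in E10.5 forebrain. Of 20 listed genes, 11 were at least 2-fold higher and 0 at least 2-fold lower, beside 29.6% and 18.0% of the expressed protein-coding genes, and their median difference was 1.10 on the log2 scale. The largest differences were those of *Bcl11a* and *Bcl11b*, zinc finger transcription factors that copurify with BAF. *Bcl11a* had 1.02 in ES cells and 131 in forebrain (129-fold, 71.8 to 258), and *Bcl11b* had 2.26 and 118 (52.4-fold, 31.6 to 93.9). *Bcl7a* followed with 45.1 and 329 (7.29-fold), and *Smarce1* (BAF57), which holds an HMG domain, with 206 and 1032 (5.02-fold). The core subunit *Smarcb1* (795 and 1086) and beta-actin (*Actb*, 26411 and 31838), each without a paralog in the complex among the genes compared, stayed within 2-fold. Of the large DNA-binding subunits, *Arid1b* was 3.65-fold higher (70.7 and 258) and *Arid1a* 1.73-fold (199 and 345). In PBAF, *Pbrm1* (665 and 1403) and *Arid2* (335 and 732) were 2.11-fold and 2.19-fold higher and *Brd7* (787 and 1214) 1.54-fold. *Brd9*, of ncBAF, was 2.21-fold higher (425 and 941). *Ss18* had 570 and 556, whereas its paralog *Ss18l1* had 49.8 and 162, and *Ss18l1* went from 8.03% to 22.5% of the pair.

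The exchange of *Actl6a* for *Actl6b* in neurons is known to involve the microRNAs miR-9* (miR-9-3p) and miR-124, which target the 3' UTR of *Actl6a* and are in turn repressed by REST in other cells. The mature miR-9-3p is shown with its seed (bases 2 to 8) in capitals, beside the part of the *Actl6a* 3' UTR (bases 1638 to 1644 of transcript Actl6a-001) that is complementary to it, since this is the match through which the microRNA would pair.
miR-9-3p: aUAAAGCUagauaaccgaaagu
Actl6a 3' UTR: acctcaacgtctgtAGCTTTAg

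The complement of this seed, AGCTTTA, occurred in a 3' UTR of any transcript for 3 of the 10 paralogs, *Actl6a*, *Smarca2* and *Smarcc1*. In the longest 3' UTR of each gene it occurred in 9.83% of 19915 genes, so the shares are not counted alike. *Rest* had an RPKM of 2348 in ES cells (2310 to 2388) and of 716 in E10.5 forebrain (699 to 734), 3.28-fold lower in forebrain (3.18 to 3.38). Its corepressor *Rcor1* was 2.31-fold higher in forebrain (150 and 347), and *Rcor2* had 1282 and 2349. The hairpin gene *Mir9-2* had 1 read in ES cells and 283 reads in forebrain. It lies wholly inside an exon of the lincRNA *C130071C03Rik* on the same strand (2.50 and 1742), so that the reads of host and hairpin cannot be separated and mature miR-9 was not measured. *Mir124a-1* had 1 read and 6 reads and *Mir124a-3* 0 reads and 5 reads, too few to compare. Beside the lower *Rest* and the reads over *Mir9-2*, *Actl6a* kept 0.788 times its level of ES cells in forebrain, and whether these values are related was not tested.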

How the data were processed

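RNA from the ES cell culture and the forebrain (1 sample each) was sequenced as single-end reads of 50 bp according to the methods and of 100 bp per the labels. Mapping by the authors was to mm9 (NCBIM37) in the HTSstation pipeline, and they deposited RPKM values per gene; the submitters' processing notes name Bowtie 0.12.7. Genes were matched to the annotation of the same build, and coordinates are 1-based. Values were used as deposited. The step of 1 read, as RPKM times kb of exon, was 1.22 in ES cells and 0.819 in forebrain. Of low genes (at most 2500 bp of exon), 65.2% and 68.2% lay within 0.05 of a whole read. Reads were rounded to whole numbers for all genes, and why the other low values are not whole was not tested. They total 42773234 and 59773588, and a floor of 3 reads is an RPKM of 0.57 and 0.38 for *Smarca2*. The deposited scale is not set by the number of reads on genes.

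Differences are on log2(RPKM + 1), called at 2-fold, beside all protein-coding genes that reached an RPKM of 10 in at least 1 sample. Levels carry exact Poisson intervals, folds exact conditional binomial intervals and paralog ratios exact conditional odds ratio intervals (95%, counting error only). The step of 1 read and the 2-fold calls were tested on simulated whole reads. The intervals and paralog ratios were not part of that test. No test between cell types was possible. Members, pairs and gene lists were chosen with earlier results of these data known. The genes named are the 10 members, 21 other subunits, other remodellers, regulators of the *Actl6* exchange and marker genes, and neighbours that share exons with a member. *Gltscr1l*, *Sox1*, *Mir9-1*, *Mir9-3* and *Mir124a-2* were not found among the listed symbols, and *Map2* is listed as *Mtap2*. Python 3.11.15, numpy 2.4.6, pandas 2.3.3, scipy 1.17.1, Biopython 1.88, pysam 0.24.0, matplotlib 3.10.9 and blastn 2.17.0 were used. Alternatives were pseudocounts of 0.1 and 5, 3 other scalings, calls at 1.5-fold and 4-fold, and other filters.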

Additional observations from a re-analysis of the deposited data

How the results depend on the processing

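Of 105 alternatives, 87 kept a value within the longer arm of its counting interval, or a count or share within 1.5 times. The longer arm runs from the estimate to the farther end. The other 18 moved it further, and 0 turned its direction. Counts, shares and the difference of a single gene under another pseudocount could not turn, so only the remaining alternatives could show a turn. Where reads are few the interval is wide, and a large move can still lie within it. Scaling by the sum of each sample shifted all differences by 0.27 on the log2 scale towards forebrain (upper quartile, -0.09; total of reads on genes, 0.09). *Smarcc1* (1.06) and *Phf10* (1.12) then passed 2-fold, so that 9 of 10 paralogs were higher, with 35.1% of the expressed protein-coding genes, and *Actl6a* had -0.07. At 4-fold, 5 of 10 paralogs and 4 of 20 other subunits were higher, beside 17.8% of the expressed protein-coding genes. The 5 include *Smarcd3* and *Dpf3*, whose reads may belong in part to another locus. With a pseudocount of 5, the ratio of *Smarca2* to *Smarca4* changed by 3.14 in place of 3.68 on the log2 scale, and that of *Actl6b* to *Actl6a* by 2.83 in place of 3.58 and that of *Dpf3* to *Phf10* by 0.71 in place of 1.32. With no filter, 25.8% of all listed genes were higher and 23.3% lower. The count without *Smarcd3* and *Dpf3* was chosen after seeing the data. No paired analysis was possible because each group holds 1 sample, and no sample could be left out. Depth limits *Actl6b* and *Dpf3* in ES cells, with 6 and 13 reads.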

Other observations

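Paralogs of other remodelling complexes were compared in the same way. In the ISWI family, *Smarca1* (SNF2L) had an RPKM of 138 in the ES cell sample and 626 in forebrain, while *Smarca5* (SNF2H) had 226 and 195. Their order thus turned, which none of the 7 BAF pairs did, and the ratio of *Smarca1* to *Smarca5* was 5.27-fold higher in forebrain (4.74 to 5.87). In the NuRD complex, *Chd3* had 79.5 and 1594, a 20.05-fold difference, and *Chd4* 4760 and 6164, so that the ratio of *Chd3* to *Chd4* changed 15.5-fold (14.2 to 16.9), about as much as the ratios of the *Smarca2* and *Actl6b* pairs. *Chd5*, a NuRD helicase known from mature neurons, went the other way, with 35.8 in ES cells from 281 reads and 4.66 in forebrain from 55 reads. *Chd7*, a helicase mutated in CHARGE syndrome, was 9.02-fold higher in forebrain (62.1 and 560).

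The remaining remodellers on the list stayed within 2-fold. *Chd8* had 631 and 717, *Ino80* 772 and 467, *Ep400* 453 and 645 and *Srcap* 385 and 498. For *Srcap*, which is listed under 2 identifiers, only the entry with more exonic bases is given. Of the 10 genes, 3 were at least 2-fold higher and 1 lower in forebrain, near the 29.6% and 18.0% of the expressed protein-coding genes, with a median difference of 0.37 on the log2 scale. All values are from 1 sample per group, and the intervals cover counting error only.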
